A study of Mus musculus with 46 samples.

Results

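Disease-associated microglia are a state that microglia, the resident macrophages of the brain, take on around amyloid plaques and in other settings of damage. Its late stage depends on the lipid receptor Trem2 and is recognised by a small set of transcripts, of which 10 were described here: Itgax, Clec7a, Cst7, Lpl, Spp1, Gpnmb, Igf1, Cd9, Lgals3 and Ank. They were taken by symbol as 10 of the 54134 rows of a table of raw read counts for 46 mouse microglia libraries. Itgax, Clec7a, Gpnmb, Cd9 and Ank encode surface or membrane proteins, and Spp1, Igf1 and Lpl encode mainly secreted proteins. Lgals3 encodes a lectin, galectin-3, and Cst7 encodes an inhibitor of lysosomal cysteine proteases. In mouse models with amyloid plaques, bulk microglia usually carry more of these transcripts as the share of cells in this state grows. In bulk libraries fewer cells in the state and less RNA per cell cannot be told apart, here or below.

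Of the libraries, 22 came from wild type mice (WT) and 24 from 5xFAD mice (labelled AD). The 5xFAD line is known as a transgenic model of amyloid deposition whose transgenes are driven by the neuronal Thy1 promoter. Each genotype received 1 of 3 diets: zero fiber, control or HAMSAB, the last a high-amylose maize starch modified with acetate and butyrate. Zero fiber WT had 6 libraries, 2 of them from males, and each other combination of diet and genotype had 8. The sources used here do not give age, strain, feeding time or the method of isolation. Whether every library is from its own mouse is not in the labels, and p-values therefore reflect library-to-library spread, which may be technical.

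Total counts ran from 52114 to 6950429 per library (median 2344837.5). The labels or depth of 2 libraries were doubted, both of zero fiber AD mice, and results that rest on them are given with and without them. The library labelled zero_fiber_AD_F replicate 1 carried Xist, the X-inactivation RNA, at 0.213 CPM (the depth-scaled count, with TMM-adjusted library sizes) and the Y-linked Ddx3y at 142 CPM, the pattern of males. The lowest total belonged to zero_fiber_AD_M replicate 2, in which 3 counts equal 46.4 CPM. The label of the cells was checked with homeostatic markers: P2ry12 lay between 3650 and 7280 CPM and Tmem119 between 2190 and 4180 CPM in all libraries. Summed markers of lymphocytes reached at most 3.7 CPM, of monocytes and neutrophils 26.2 CPM, of dendritic cells 61.7 CPM and of perivascular macrophages 162 CPM.

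The sequences upstream of 3 of the genes are shown because Itgax was the one marker that passed the test and because Clec7a and Cd9 were the markers that followed it most closely in AD and in WT libraries. Each is the 250 bases before the start site in the RefSeq table (GRCm38.p6), written 5′ to 3′ on the gene's strand. The Itgax window is chr7:128129300-128129549 (plus strand), that of Clec7a chr6:129472780-129473029 (minus strand) and that of Cd9 chr6:125494761-125495010 (minus strand). Capitals mark matches to the motifs searched.
Itgax: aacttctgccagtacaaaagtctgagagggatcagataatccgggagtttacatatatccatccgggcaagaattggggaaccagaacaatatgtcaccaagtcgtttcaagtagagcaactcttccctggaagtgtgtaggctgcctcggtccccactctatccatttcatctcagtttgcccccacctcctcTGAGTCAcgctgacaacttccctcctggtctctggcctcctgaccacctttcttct
Clec7a: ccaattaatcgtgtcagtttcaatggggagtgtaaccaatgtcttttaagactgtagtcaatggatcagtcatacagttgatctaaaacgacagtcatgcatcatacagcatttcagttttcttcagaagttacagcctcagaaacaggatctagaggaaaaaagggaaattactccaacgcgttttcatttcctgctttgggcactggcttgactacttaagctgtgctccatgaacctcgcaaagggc
Cd9: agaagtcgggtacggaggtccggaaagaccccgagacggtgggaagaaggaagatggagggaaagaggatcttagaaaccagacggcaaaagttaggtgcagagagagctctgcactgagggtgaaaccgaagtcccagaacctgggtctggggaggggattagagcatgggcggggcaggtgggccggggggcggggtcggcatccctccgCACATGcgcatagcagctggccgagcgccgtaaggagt

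Of the 10 markers, 9 had an entry in that table, and Lpl had none. On both strands 5 motifs were searched: the PU.1 site GAGGAAG, the AP-1 site TGANTCA, the CLEAR E-box CACGTG (6.02% of all windows), the MITF E-box CATGTG and the interferon response element. No match listed here overlaps another. The Itgax window held an AP-1 match, TGAGTCA, 56 to 50 bases before the start, a motif found in 6.75% of the 32851 windows of the same length in the table. The Cd9 window held an MITF E-box match on the opposite strand, 38 to 33 bases before the start (12.3% of all windows), and the Clec7a window held none of the 5. Igf1 had both a PU.1 match (10.6% of all windows) and an AP-1 match, and Spp1 had a PU.1 match and an interferon response element (2.98%). The windows of Cst7, Gpnmb, Lgals3 and Ank had none. A match describes these letters and is not a measured binding site.

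The markers differed widely in level, and most were scarce. Per kilobase of exon, Cd9, a tetraspanin of the plasma membrane, was the most abundant at 300 ± 72.5 CPM per kb (SD, n = 46 libraries). Cst7, the cystatin F gene, followed at 22.7 ± 7.92 CPM per kb, then Ank, a membrane protein of pyrophosphate and ATP export, at 9.41 ± 3.04 and Clec7a, the beta-glucan receptor Dectin-1, at 8.77 ± 4.44. Ank and Clec7a, neighbours in this order, differed by less than their spread. Lpl, lipoprotein lipase, stood at 5.41 ± 2.13 CPM per kb and Spp1, osteopontin, at 4.8 ± 3.43, again closer together than their spread. Lgals3, the lectin galectin-3, at 1.79 ± 1.33, Itgax, the integrin subunit CD11c, at 1.23 ± 0.778 and Igf1, the growth factor, at 1.01 ± 0.401 CPM per kb overlapped in the same way.

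Gpnmb, a glycoprotein of lysosomes and the cell surface, was last at 0.0351 ± 0.0544 CPM per kb. It had 29 counts in all 46 libraries together, 0 in 28 of them and at most 5 in any 1. Those 5 counts, 1.35 CPM, came from a control WT library. At this depth no difference in Gpnmb was detectable, it did not pass the filter on low counts, and no fold is given. The other 9 markers passed that filter. All 9 were therefore tested in each of the 16 comparisons, in 1 fit with 12121 genes, and a gene was called at a Benjamini-Hochberg adjusted p under 0.05 in edgeR's quasi-likelihood test.

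**Figure D1:**
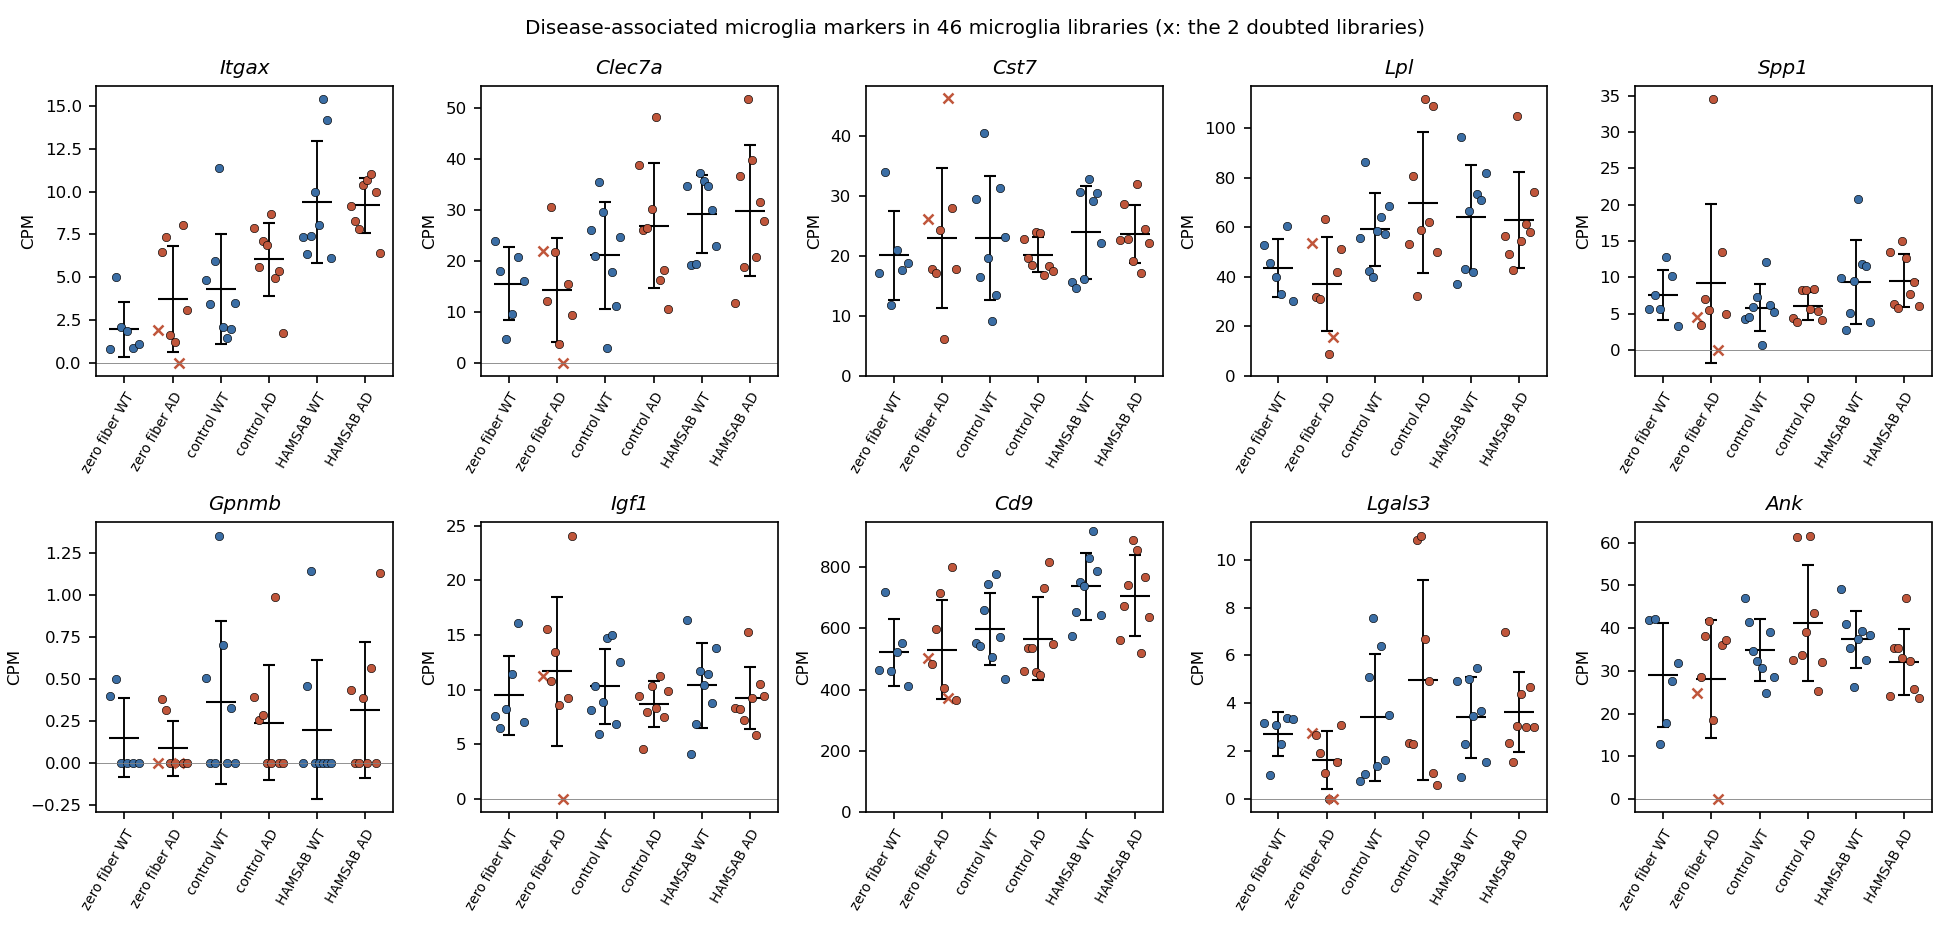
Levels of the 10 markers in CPM (linear axes that include 0) for each library of the 6 diet and genotype groups, WT in blue and AD in red, with the mean (bar) and SD (whiskers). Crosses are the 2 doubted libraries. Itgax has a gap between zero fiber WT at 0.798 to 5.01 CPM and HAMSAB WT at 6.13 to 15.4 CPM. How many of all tested genes have such a gap was not counted. The AD and WT points of a diet overlap in every panel.

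The first question was whether AD microglia carried more of the late-stage transcripts than WT microglia on the same diet. No marker was called, and for most the genotypes lay on top of each other. On the control diet Clec7a had a lowest, median and highest value of 2.79, 22.9 and 35.5 CPM in WT and of 10.5, 26.2 and 48.2 CPM in AD. Cst7 stood at 23 ± 10.4 CPM in WT against 20.2 ± 2.93 CPM in AD (SD, n = 8 each), and Spp1 at 5.78 ± 3.22 and 6.02 ± 1.98 CPM. The groups overlapped for all of these. The AD range lay within the WT range for Cst7 and Spp1, and 2 control AD libraries exceeded every control WT library in Clec7a.

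Averaged over the 3 diets, 0 of the 9 tested markers were called (edgeR), against a background of 0.0165% of all tested genes. At an unadjusted p under 0.05 there was 1, Itgax, and DESeq2 and limma voom called 0. Over all 12121 tested genes 360 were higher and 522 lower in AD at that p. The median log2 difference of AD minus WT was 0.02 over the markers and 0.00 over all tested genes. The 95% intervals bound what could have been missed: for Cd9 the log2 difference was -0.02 (-0.20 to 0.15), for Lpl 0.02 (-0.26 to 0.30), for Cst7 -0.04 (-0.30 to 0.23) and for Igf1 0.00 (-0.29 to 0.29). The intervals of Clec7a (0.11, -0.25 to 0.48), Spp1 (0.13, -0.29 to 0.55) and Ank (0.05, -0.19 to 0.30) also held 0. Lgals3 was the least certain, at 0.00 with an interval from -0.58 to 0.58.

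Itgax had the one interval that excluded 0. Its log2 difference over the diets was 0.71 ± 0.22 (SE), with a 95% interval from 0.26 to 1.15, an unadjusted p of 0.00153 and an adjusted p of 0.497 in edgeR's quasi-likelihood test. It was 0.76 without the 2 doubted libraries (edgeR adjusted p = 0.311). On zero fiber Itgax had a lowest, median and highest value of 0.798, 1.47 and 5.01 CPM in WT and of 0, 2.5 and 8.06 CPM in AD. On HAMSAB the values were 6.13, 7.74 and 15.4 CPM in WT and 6.39, 9.56 and 11 CPM in AD. The genotypes overlapped on each diet, with 3 zero fiber AD libraries above all 6 zero fiber WT libraries.

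By diet, 0 of 9 markers were called on the control diet (background 0%), 0 of 9 on zero fiber (0.00825%) and 0 of 9 on HAMSAB (1.68%) in edgeR's test. DESeq2 and voom also called 0 on each. At an unadjusted p under 0.05 there were 0, 1 and 0 markers, the 1 being Itgax on zero fiber, whose log2 difference was 1.56 ± 0.51 (SE; edgeR adjusted p = 0.937). Leaving out each of the 14 zero fiber libraries in turn gave 1.04 to 1.86 for it. The median over the markers was 0.21 on control, 0.08 on zero fiber and -0.02 on HAMSAB, and over all tested genes 0.00 on each. On HAMSAB, where the most genes were called, the Itgax difference was -0.04 with an interval from -0.60 to 0.51. On control all 7 tested perivascular macrophage markers were higher in AD, 6 of them at an unadjusted p under 0.05 (median 1.55). Their sums were 22.3 to 60.1 CPM in WT and 27.4 to 162 CPM in AD. On zero fiber 5 were higher and 2 lower (median 0.30), and on HAMSAB all 7 were lower, 2 at that p (median -0.65). None was called in edgeR, and their part in the marker values was not tested.

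**Figure D2:**
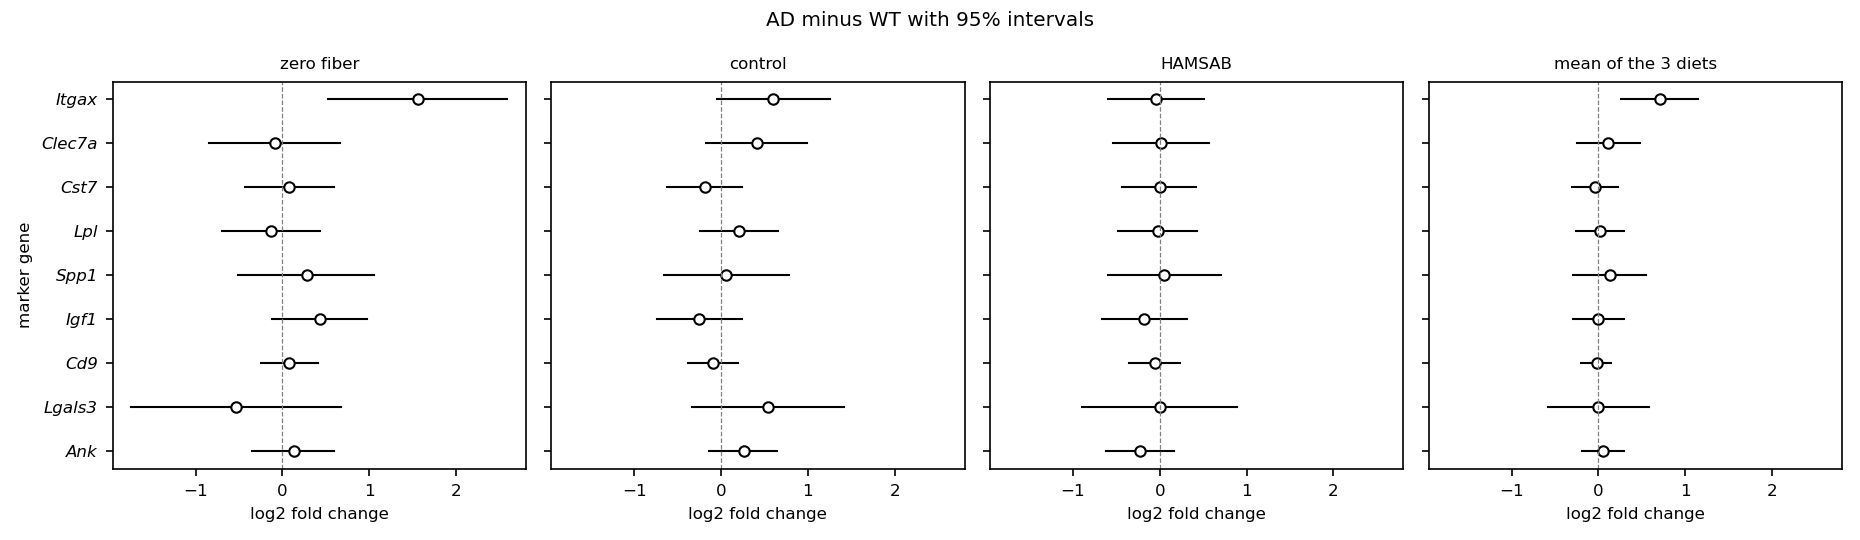
Log2 fold change of AD minus WT (points) with 95% intervals (lines) for the 9 tested markers on zero fiber, control and HAMSAB and as the mean of the 3 diets. Open points did not pass the adjusted p of 0.05, which holds for every point; the Itgax interval excludes 0 on zero fiber and over the diets.

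The other genes of the program were counted from lists. Of 9 tested stage 1 genes, which include the lipid carrier Apoe, the Trem2 adaptor Tyrobp and the cathepsins Ctsb and Ctsd, 0 were called in AD against WT over the diets, with a median log2 difference of 0.06. Of 16 other tested stage 2 genes, which include Trem2 itself, 0 were called (median 0.03), and of 16 homeostatic genes 0 were called (median 0.04). At an unadjusted p under 0.05 there were 1, 1 and 0 of them. On the control diet Trem2 stood at 1810 ± 353 CPM (WT) and 1830 ± 196 CPM (AD), and Apoe at 1390 ± 376 and 1690 ± 264 CPM. Apoe stood at 1460 ± 209 CPM (WT) and 1900 ± 1170 CPM (AD) on zero fiber. The values on HAMSAB were 1590 ± 423 and 2020 ± 705 CPM. The Apoe ranges of WT and AD overlapped on each diet.

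The second question was how the diets moved the markers. In WT mice Itgax rose between zero fiber and HAMSAB, the 1 call among all comparisons of the markers. The 6 zero fiber WT libraries held Itgax at 0.798, 0.845, 1.11, 1.83, 2.07 and 5.01 CPM, and the 8 HAMSAB WT libraries at 6.13 to 15.4 CPM with a median of 7.74. The groups did not overlap: the highest zero fiber library lay below the lowest HAMSAB library. How many of all 12121 tested genes have such a gap between these groups was not counted. Group means were 1.94 ± 1.59 CPM (SD, n = 6) and 9.37 ± 3.57 CPM (SD, n = 8). The fit, which weights the sexes equally, put the log2 difference at 2.60 ± 0.48 (SE), with a 95% interval from 1.63 to 3.57 and an adjusted p of 5.5e-04 in edgeR's quasi-likelihood test.

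The counts behind this call were few: 2 to 10 per library and 25 in all on zero fiber, against 8 to 107 per library and 242 in all on HAMSAB. Without zero_fiber_WT_M replicate 2, which leaves 1 male in that group, the log2 difference was 2.70 and the adjusted p 0.0531 in edgeR, and the calls over all genes went from 265 to 1. Each of the other 13 fits without 1 library called it, with log2 differences over all 14 from 2.44 to 2.91. DESeq2 (2.63) and voom (2.59) called it too.

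**Figure D3:**
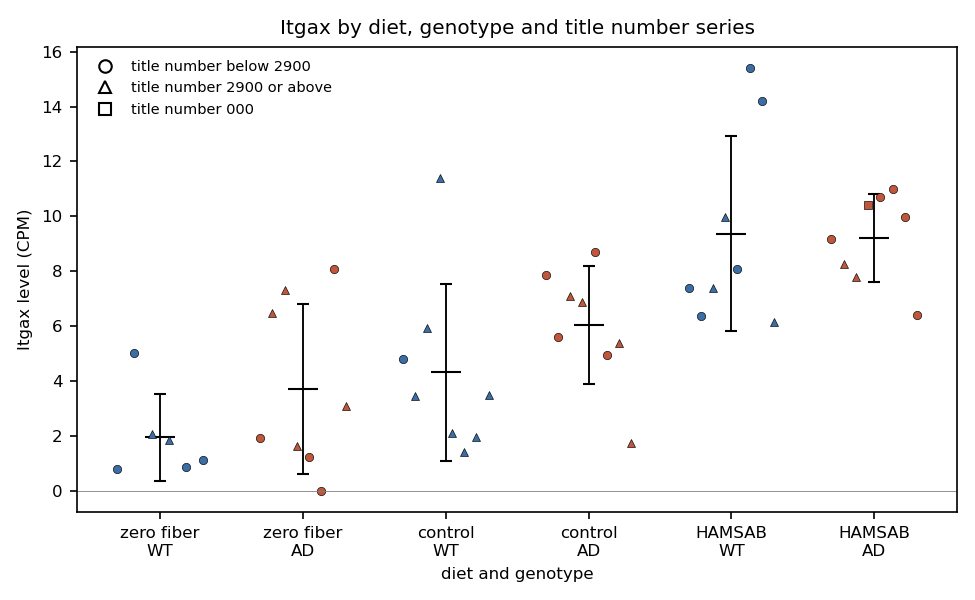
Itgax in CPM (linear axis) for each library by diet and genotype, WT in blue and AD in red, with mean and SD. The marker shape gives the series to which the title's number belongs, with a square for the library titled 000. The zero fiber WT libraries lie below the HAMSAB WT libraries among circles and among triangles.

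The numbers in the library titles fall into a series below 2900 and a series from 2900 on, which the labels do not call batches. HAMSAB_AD_F replicate 4, titled 000, was placed in neither. It is missing from every fit with a series term and from the values within a series. Within the lower series Itgax ran from 0.798 to 5.01 CPM in 4 zero fiber WT libraries and from 6.37 to 15.4 CPM in 5 HAMSAB WT libraries. Within the upper series it was 1.83 and 2.07 CPM in 2 zero fiber WT libraries and 6.13 to 9.99 CPM in 3 HAMSAB WT libraries. The gap was present in both. With a term for the series the log2 difference was 2.60 (edgeR adjusted p = 9.3e-04).

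Itgax also marks dendritic cells, so their other markers were read beside it. Their sum ran from 28.3 to 45.1 CPM (median 37.5) in zero fiber WT and from 31.4 to 61.7 CPM (median 44.3) in HAMSAB WT libraries, which overlap. Of 8 dendritic cell markers 4 were tested, 3 were higher on HAMSAB and 0 were called, with a median log2 difference of 0.37 and 0 at an unadjusted p under 0.05. Clec9a and Cd209a were at 0 in 40 of the 46 libraries each and Ccr7 in 37. The other 5 were present in most: Zbtb46 and Itgae were at 0 in 1 library each, Flt3 in 3, Xcr1 in 6 and H2-Ab1 in 0. Their medians were 15.9 CPM for Zbtb46, 7.41 for Itgae, 1.8 for Flt3, 1.44 for Xcr1 and 13.6 for H2-Ab1. Summed perivascular macrophage markers (37.1 to 84.9 against 29.6 to 77.8 CPM) and monocyte and neutrophil markers (4.83 to 17.7 against 3.89 to 21.8 CPM) overlapped between the same groups. Hba-a1, an alpha-globin gene of red blood cells, fell by 2.30 on the log2 scale from zero fiber to HAMSAB (edgeR adjusted p = 0.0192), and summed erythroid and choroid plexus markers were 171 to 760 and 42.3 to 229 CPM. The part of these cells in the Itgax result was not tested.

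Over the 9 tested markers in WT, 1 was called between HAMSAB and zero fiber (background 2.19%), 4 had an unadjusted p under 0.05 and all 9 were higher on HAMSAB. Their median log2 difference was 0.35, against 0.00 over all tested genes, of which 226 were called higher and 39 lower. Over all 12121 tested genes 6158 were higher and 5963 lower, 924 and 533 of them at an unadjusted p under 0.05. Cd9 stood at a lowest, median and highest of 412, 492 and 718 CPM on zero fiber and of 576, 742 and 917 CPM on HAMSAB. These groups overlapped through 1 zero fiber library at 718 CPM, and the log2 difference was 0.53 ± 0.16 (SE; edgeR adjusted p = 0.0849). DESeq2 (adjusted p = 0.0428) and limma voom (adjusted p = 0.0208) called Cd9, as did edgeR without the library at 718 CPM, zero_fiber_WT_F replicate 2 (adjusted p = 0.0333). That was 1 of 14 edgeR fits without 1 library, and without zero_fiber_WT_M replicate 2 the adjusted p was 0.518. Clec7a ran from 4.65 to 23.9 CPM on zero fiber and from 19.1 to 37.2 CPM on HAMSAB, a log2 difference of 0.86 ± 0.33 (edgeR adjusted p = 0.212). Lpl stood at 43.6 ± 11.6 and 64 ± 21.2 CPM (edgeR adjusted p = 0.391), with a log2 difference of 0.54 that was 0.33 without zero_fiber_WT_M replicate 2 and 0.82 without zero_fiber_WT_M replicate 1. The remaining markers had log2 differences from 0.07 for Igf1 to 0.35 for Ank, each with an interval that held 0.

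In AD mice the same pair of diets gave 0 calls among the 9 markers (edgeR; background 0.239%), and 0 in DESeq2 and voom. In direction 8 of 9 were higher on HAMSAB, with a median of 0.39 against 0.00 over all tested genes, of which 6158 were higher and 5963 lower. The 8 include Ank at 0.00 and Spp1 at 0.10, whose intervals held 0, as did those of Cst7 and Lgals3. At an unadjusted p under 0.05 there were 4 higher (Itgax, Clec7a, Lpl and Cd9) and 1 lower (Igf1), and over all 12121 tested genes 642 higher and 639 lower. Markers of other cells also differed between these AD groups. All 7 tested perivascular macrophage markers were lower on HAMSAB, 3 of them at an unadjusted p under 0.05 (median -0.76), with sums of 32.6 to 95.9 CPM on zero fiber and 19.8 to 46.3 CPM on HAMSAB. Of 5 tested erythroid and choroid plexus markers 4 were lower and 1 higher, all at an unadjusted p under 0.05 (median -2.35), with sums of 124 to 492 and 97.4 to 329 CPM. None of these was called in edgeR, and their part in the marker values was not tested. The AD and WT comparisons share no library. Both sets of values come from 1 fit, so the spread estimate is common.

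Itgax had a lowest, median and highest value of 0, 2.5 and 8.06 CPM in zero fiber AD and of 6.39, 9.56 and 11 CPM in HAMSAB AD libraries. The HAMSAB libraries were the tighter group, and 3 zero fiber libraries reached into their range. The fold was 2, with a 95% interval of the log2 difference from 0.35 to 1.65 (edgeR adjusted p = 0.179), and the log2 difference was 0.83 without the 2 doubted libraries. Within the lower title series it ran from 0 to 8.06 CPM (4 libraries) against 6.39 to 11 CPM (5 libraries), and within the upper from 1.63 to 7.32 (4 libraries) against 7.8 and 8.27 CPM (2 libraries). Without zero_fiber_AD_M replicate 3, the zero fiber AD library of highest Itgax, the difference was 1.51 and the edgeR adjusted p 0.0477, and Cd9 was then called too (0.58, edgeR adjusted p = 0.0385).

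Clec7a ran from 0 to 30.6 CPM (median 13.8) in zero fiber AD and from 11.8 to 51.8 CPM (median 29.7) in HAMSAB AD libraries, which overlap. Its log2 difference was 0.97 ± 0.33 (SE; edgeR adjusted p = 0.217), and 0.96 without the 2 doubted libraries. Lpl, which releases fatty acids from lipoproteins, stood at 37.2 ± 19.1 and 62.8 ± 19.4 CPM, with a log2 difference of 0.65 (edgeR adjusted p = 0.303). HAMSAB_AD_F replicate 4 was the highest of its group for Clec7a (51.8 CPM) and Lpl (105 CPM). Without it the edgeR adjusted p was 0.416 for Clec7a and 0.544 for Lpl. Cd9 stood at 530 ± 161 and 705 ± 132 CPM, with 0.39 (edgeR adjusted p = 0.304). Igf1 was the 1 marker that was lower on HAMSAB, at 9.28 ± 2.83 CPM against 11.7 ± 6.83 CPM on zero fiber, with -0.53 (edgeR adjusted p = 0.433). Without zero_fiber_AD_M replicate 4, at 24.1 CPM, the Igf1 difference was -0.20 (edgeR adjusted p = 0.875).

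**Figure D4:**
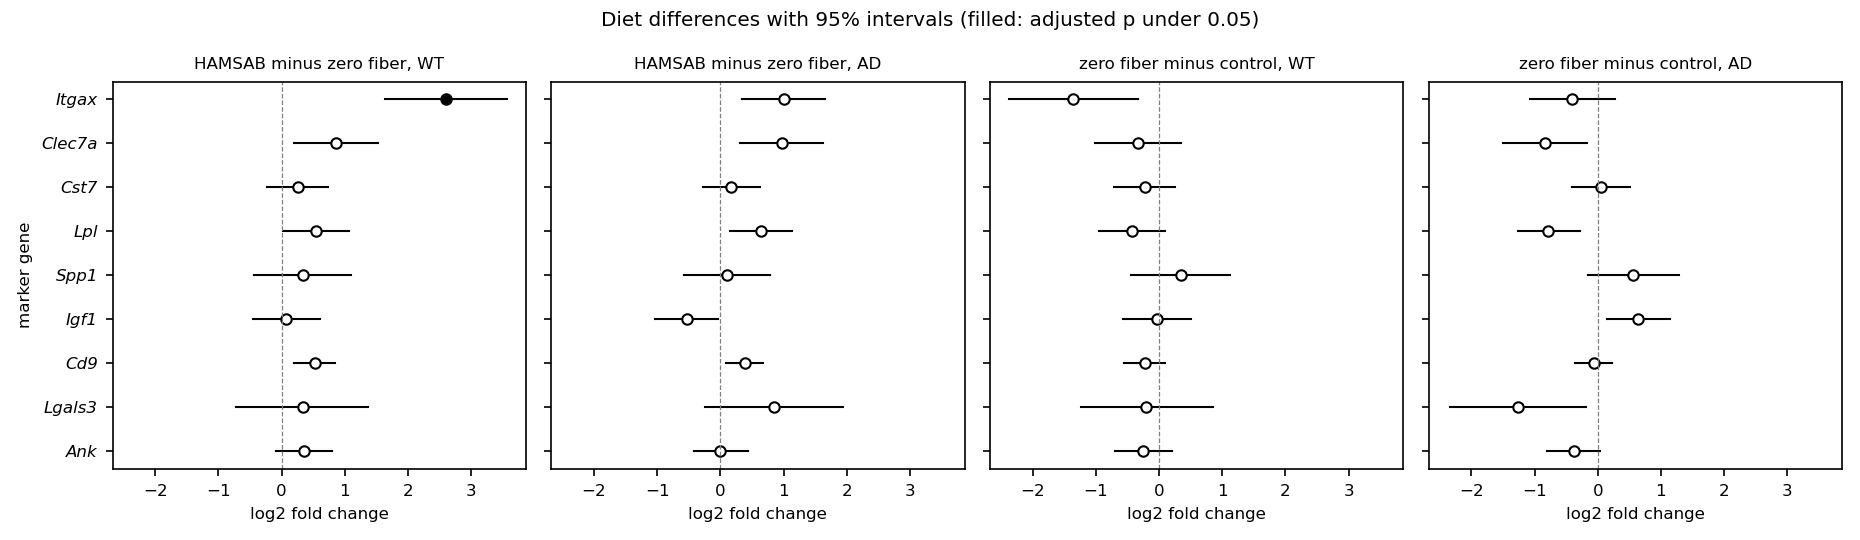
Log2 fold changes (points) with 95% intervals (lines) of the 9 tested markers for HAMSAB minus zero fiber and zero fiber minus control, in WT and in AD. The filled point, Itgax at 2.60 in WT, is the 1 with an adjusted p under 0.05; Itgax, Clec7a, Lpl and Cd9 lie right of 0 in both HAMSAB panels.

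The difference between the genotypes in this diet response was itself tested. The interaction gave 0 calls among the markers in edgeR, DESeq2 and voom (background 1.08%), with 1 at an unadjusted p under 0.05. That was Itgax: its HAMSAB minus zero fiber difference was smaller in AD than in WT by -1.60 ± 0.58 (SE) on the log2 scale (edgeR adjusted p = 0.179). Over all tested genes 392 had a positive and 755 a negative interaction at an unadjusted p under 0.05. For Clec7a the difference between the responses was 0.11 with an interval from -0.83 to 1.04, and for Cd9 -0.14 with an interval from -0.58 to 0.30. A call in WT and none in AD therefore did not amount to a difference between the genotypes that passed the test.

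Set against the control diet, HAMSAB gave 0 calls among the markers in WT (edgeR; background 0.281%) and 0 in AD (0.0743%). At an unadjusted p under 0.05 there were 2 of 9 in each, Itgax and Cd9 both times, all higher on HAMSAB. Over all 12121 tested genes 922 were higher and 693 lower at that p in WT, and 896 higher and 963 lower in AD. DESeq2 and voom each called 1 in WT, Itgax, and 0 in AD. Itgax had a lowest, median and highest value of 1.42, 3.47 and 11.4 CPM in control WT, against 6.13, 7.74 and 15.4 CPM in HAMSAB WT. The groups overlapped through 1 control library at 11.4 CPM. The log2 difference was 1.24 ± 0.31 (SE), with an edgeR adjusted p of 0.0553, and of 0.0299 without that library, control_WT_F replicate 4. Without HAMSAB_WT_F replicate 3 or HAMSAB_WT_M replicate 4 the edgeR adjusted p was 0.0474 or 0.0189. The other 13 of the 16 fits without 1 library did not call it, with an adjusted p of up to 0.162 without HAMSAB_WT_M replicate 2.

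The title series differed between these groups, since 7 of the 8 control WT and 3 of the 8 HAMSAB WT libraries belonged to the upper one. Within it Itgax ran from 1.42 to 11.4 CPM on control and from 6.13 to 9.99 CPM on HAMSAB. With a term for the series the difference was 1.21 and the edgeR adjusted p 0.152. Between these WT groups 6 tested perivascular macrophage markers were higher on HAMSAB and 1 lower (median 0.86). Of the 6, 2 had an unadjusted p under 0.05, and 0 were called in edgeR. Their sums were 22.3 to 60.1 CPM on control and 29.6 to 77.8 CPM on HAMSAB, and their part in the Itgax values was not tested. In AD, Itgax stood at 6.03 ± 2.15 CPM on control and 9.2 ± 1.6 CPM on HAMSAB (log2 difference 0.59, edgeR adjusted p = 0.306). Between these AD groups all 7 tested perivascular macrophage markers were lower on HAMSAB at an unadjusted p under 0.05 (median -1.28, 0 called in edgeR), with sums of 27.4 to 162 CPM on control and 19.8 to 46.3 CPM on HAMSAB, and their part in the Itgax values was not tested. Cd9 differed by 0.30 in WT (edgeR adjusted p = 0.361) and by 0.33 in AD (0.265). The HAMSAB libraries are those of the comparisons with zero fiber, so these values are not independent of them. The interaction with genotype gave 0 calls in edgeR, DESeq2 and voom (background 0%), 0 of them at an unadjusted p under 0.05 in edgeR. In this interaction all 7 tested perivascular macrophage markers were negative at an unadjusted p under 0.05 (median -2.36, 0 called in edgeR). Their part in the marker values was not tested.

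Zero fiber against control gave 0 calls among the markers in WT (edgeR; background 0.00825%) and 0 in AD (0.0578%), and 0 in DESeq2 and voom in both. In WT 1 marker had an unadjusted p under 0.05, Itgax, with a log2 difference of -1.36 ± 0.51 (SE; edgeR adjusted p = 0.386). The zero fiber WT libraries at 0.798 to 5.01 CPM overlapped the control WT libraries at 1.42 to 11.4 CPM. In AD there were 4: Clec7a at -0.84 ± 0.33, Lpl at -0.78 ± 0.25 and Lgals3 at -1.26 ± 0.53 were lower and Igf1 at 0.64 ± 0.25 was higher on zero fiber, with edgeR adjusted p from 0.195 to 0.336. Over all 12121 tested genes 683 were higher and 631 lower at an unadjusted p under 0.05 in AD, and 383 higher and 536 lower in WT. The median over the 9 markers was -0.38 in AD and -0.23 in WT, against -0.01 over all tested genes in both. Markers of other cells also differed between the WT groups. All 7 tested perivascular macrophage markers were higher on zero fiber, 2 at an unadjusted p under 0.05 (median 0.61). Of 5 tested erythroid and choroid plexus markers 4 were higher, all 4 at that p, and 1 lower (median 2.12). None was called in edgeR, and their part in the marker values was not tested.

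Lgals3 illustrates the low counts behind the AD values. It had 1 to 38 counts per library on control AD, 0.583 to 11 CPM with a median of 3.64, and 0 to 13 counts on zero fiber AD, 0 to 3.09 CPM with a median of 1.72. The ranges overlapped, and 4 control AD libraries lay above every zero fiber AD library. Lpl had a lowest, median and highest value of 32.4, 60.6 and 112 CPM on control AD and of 8.63, 36.9 and 63.4 CPM on zero fiber AD, again with overlap. Hba-a2, a red blood cell globin gene, was called between these groups (log2 difference 3.63 ± 1.06, edgeR adjusted p = 0.0329). Of 5 tested erythroid and choroid plexus markers 4 were higher on zero fiber, all 4 at an unadjusted p under 0.05, and 1 lower (median 2.90). All 3 tested neuron markers were higher, 2 at that p (median 1.19). All 7 tested perivascular macrophage markers were lower, 1 at that p (median -0.43). The part of these cells in the marker values was not tested. Without the 2 doubted libraries, which both belong to zero fiber AD, the differences were -0.83 for Clec7a, -0.82 for Lpl, -1.34 for Lgals3 and 0.69 for Igf1. Single libraries moved them further: Igf1 was 0.31 without zero_fiber_AD_M replicate 4 and Clec7a -0.49 without control_AD_M replicate 1. Over the 16 fits without 1 library Lgals3 ran from -1.58 to -0.94 and Lpl from -0.93 to -0.62. The interaction with genotype gave 0 calls in edgeR, DESeq2 and voom (background 0%), and 0 at an unadjusted p under 0.05 in edgeR.

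Other genes of the program were also compared between the diets. Between HAMSAB and zero fiber in AD, where 0.239% of all tested genes were called, 2 of 16 other stage 2 genes were, the receptor tyrosine kinase Axl (log2 difference 1.08 ± 0.23, adjusted p = 0.018) and the surface glycoprotein Cd83 (0.57 ± 0.13, adjusted p = 0.0474). All 16 were higher on HAMSAB, with a median of 0.29. Against the same 0.239%, 2 of 9 stage 1 genes were called, the MHC class I genes H2-D1 (1.09 ± 0.16, adjusted p = 2.8e-04) and B2m (0.59 ± 0.11, adjusted p = 0.00417), and the median was 0.24. H2-D1 may share reads with near-identical H2 genes, since the sources used here do not give how such reads were treated. These AD values include the 2 doubted libraries.

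In WT, where 2.19% of all tested genes were called between the same diets, 3 of 16 stage 2 genes were, Axl (1.36 ± 0.26, adjusted p = 0.00362), Cd83 (0.57 ± 0.14, adjusted p = 0.0276) and Csf1, a growth factor of macrophages (0.64 ± 0.16, adjusted p = 0.027). No stage 1 gene was called, and 1 of 9 had an unadjusted p under 0.05. Axl ran from 11 to 29.2 CPM in zero fiber WT and from 18.2 to 74.6 CPM in HAMSAB WT libraries, which overlap. Cd83 was the 1 stage 2 gene of 16 called between HAMSAB and control in WT, against 0.281% of all tested genes (0.54 ± 0.13, adjusted p = 0.0483). All these adjusted p are from edgeR's quasi-likelihood test over 12121 genes. Of 16 homeostatic genes 0 were called in any of the 6 comparisons of diets, with medians from -0.13 to 0.01 and at most 3 at an unadjusted p under 0.05.

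The sexes were compared over the diets. Of the 9 markers 0 were called between females and males in AD (edgeR; background 0.0578%) and 0 in WT (0.0743%), 0 at an unadjusted p under 0.05, and 0 in DESeq2 and voom. The largest differences of females minus males were 0.67 ± 0.36 for Itgax in WT (edgeR adjusted p = 0.718) and 0.46 ± 0.25 for Clec7a in AD (0.753). The library labelled zero_fiber_AD_F replicate 1 counts as female here, against its sex genes, and without the 2 doubted libraries 0 markers were called in either genotype. The interaction of genotype with sex gave 0 calls in all 3 tools (background 0%), and 0 at an unadjusted p under 0.05 in edgeR.

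Whether the markers rose and fell together from library to library was asked within each genotype, on log2(CPM + 1), over the 45 pairs of the 10 markers, with permutation p-values (100000 resamples, two-sided) adjusted over the pairs of a genotype. In the 24 AD libraries the median Pearson's r was 0.35 and 9 pairs were called, all of positive r, but 0 by Spearman's rho. These values depended on 1 library: without zero_fiber_AD_M replicate 2, where 7 of the 10 markers were at 0, the median r was 0.14 and 4 pairs were called. In the upper title series (10 AD libraries) 0 pairs were called, in the lower (13) 7. On deviations from the means of diet, genotype and sex groups 0 pairs were called, with a median r of 0.30.

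Itgax and Clec7a were among the 3 pairs called both with and without the 2 doubted AD libraries. Their Pearson's r was 0.79 (permutation adjusted p = 0.00315) and their Spearman's rho 0.63 (permutation adjusted p = 0.0634). The r was 0.49 without the 2 libraries farthest from the median of Itgax, 0.68 without the 2 doubted libraries (permutation adjusted p = 0.0342), and 0.84 and 0.57 within the lower and upper title series. Itgax and Lgals3 had r = 0.67 (permutation adjusted p = 0.0054; rho = 0.52, permutation adjusted p = 0.201), 0.44 without the 2 farthest, 0.61 without the doubted libraries and 0.79 and 0.49 within the series. Clec7a and Lpl had r = 0.70 (permutation adjusted p = 0.00981; rho = 0.44, permutation adjusted p = 0.208), but 0.35 without the 2 farthest libraries and 0.82 and -0.07 within the series.

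Other AD pairs rested on the doubted libraries. Clec7a and Ank had r = 0.82 (permutation adjusted p = 0.0054; rho = 0.43, permutation adjusted p = 0.208), and 0.51 without them (permutation adjusted p = 0.109). Itgax and Ank went from 0.65 to 0.18. Cst7 turned the other way: its r with Clec7a was 0.02 over all 24 libraries and 0.68 without the 2 doubted ones (permutation adjusted p = 0.0342). Igf1 and Spp1 followed none of the others without the 2 doubted libraries, with r from -0.26 to 0.02 for Igf1 and from -0.45 to 0.16 for Spp1.

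**Figure D5:**
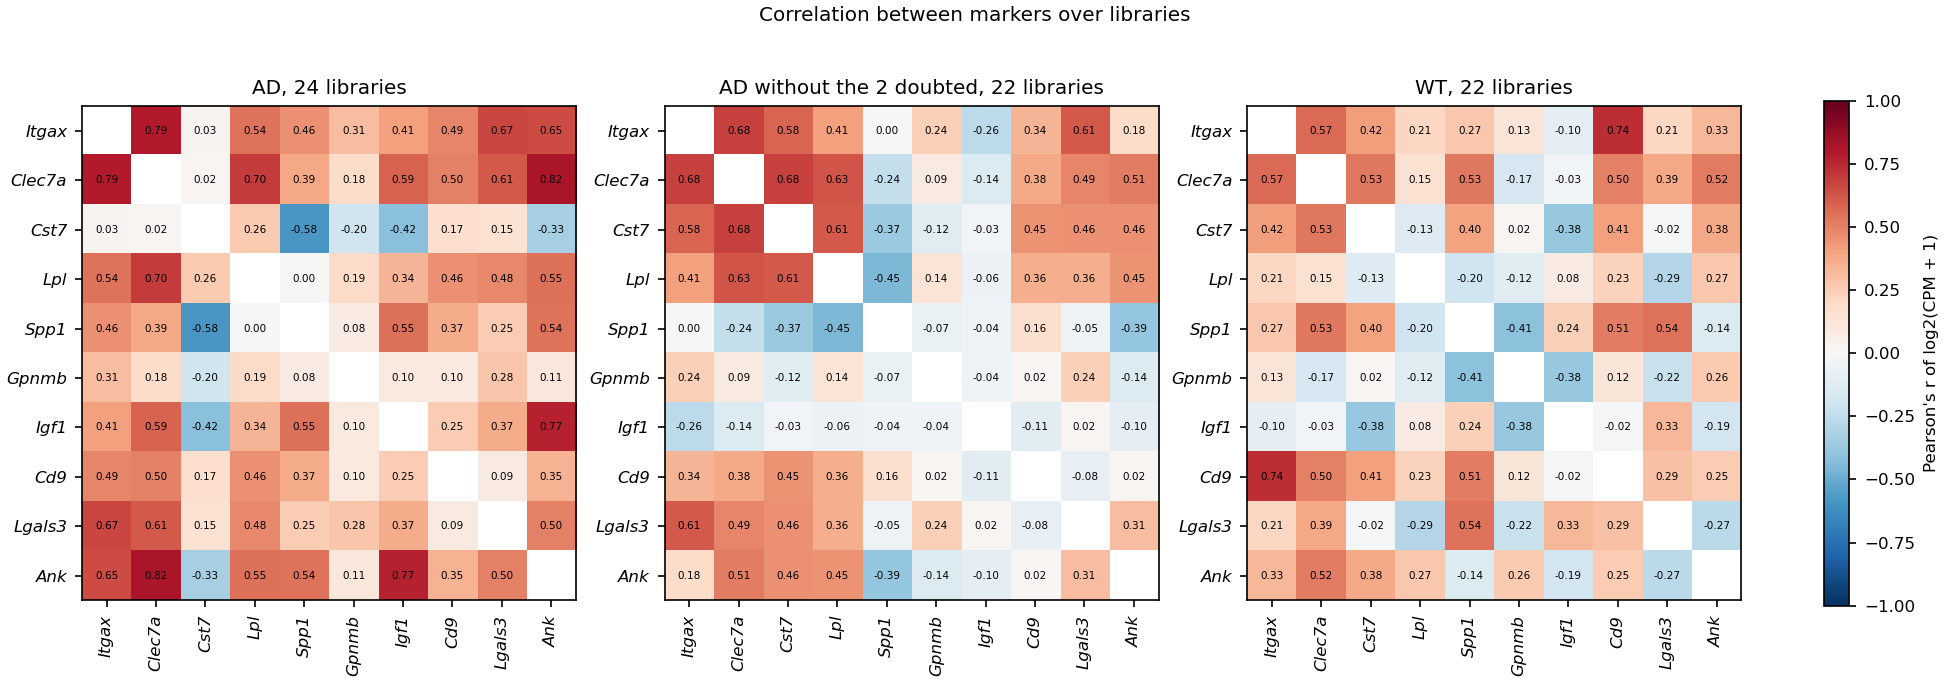
Pearson's r of log2(CPM + 1) between markers over the 24 AD libraries, over the 22 AD libraries left without the 2 doubted ones and over the 22 WT libraries (red positive, blue negative, value in each cell). The AD block of Itgax, Clec7a, Lpl and Lgals3 remains positive in the middle panel, while the cells of Igf1 and Spp1 lose their colour or turn blue.

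In the 22 WT libraries the median r was 0.21 and 1 pair was called by r, Itgax and Cd9, with r = 0.74 (permutation adjusted p = 0.0045) and rho = 0.74 (permutation adjusted p = 0.00495). It was 0.73 without the 2 libraries farthest from the median of Itgax, and 0.86 and 0.55 within the lower and upper title series. By rho Itgax and Clec7a were called as well (0.66, permutation adjusted p = 0.0243), with r = 0.57 (permutation adjusted p = 0.0866) and 0.70 without the 2 farthest. Both relations include the diet difference of Itgax in WT: on deviations from group means r was 0.41 for Itgax with Cd9 and 0.18 for Itgax with Clec7a, and 0 pairs were called.

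The genes outside the markers whose log2 level followed the mean of the 9 markers most closely over the 24 AD libraries were S1pr1 (r = 0.93), Fastkd2 (0.91), Got1 (0.91), Fitm2 (0.90), Cmtr1, Dmap1, Ccl2 and Arpc1b (0.89 each), Trmt10b and Rnaset2b (0.88 each). Of the markers themselves, Clec7a followed that mean at r = 0.92 (0.84 without the 2 doubted libraries), Cst7 at 0.05 (0.81 without them), Spp1 at 0.51 (-0.08) and Igf1 at 0.66 (0.06). Each marker is part of that mean, which raises its r, so these r cannot be set against those of the other genes. Without the 2 doubted libraries the list was led by Slc16a3 (0.85), Cd63-ps (0.82), S1pr1 (0.82) and Letmd1 (0.80), and S1pr1 and Fitm2 (0.76) were the genes on both lists. These values describe AD libraries that differ in depth (52114 to 4989982 counts) and may differ in handling, and 10181 genes were ranked.

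The annotation bears on 4 of the markers. In GENCODE (release M21, GRCm38) Itgax lies on chromosome 7 from 128129547 to 128150657 (plus strand) and overlaps the exons of no other gene. Clec7a, on chromosome 6 from 129461591 to 129472779 (minus strand), is annotated as a polymorphic pseudogene. Cd9, on chromosome 6 from 125460266 to 125494791 (minus strand), shares 218 exonic bases with Gm26728 on the opposite strand, and Spp1, on chromosome 5 from 104435118 to 104441050 (plus strand), shares 309 with Gm42793 on its own. Ank, on chromosome 15 from 27466677 to 27594909 (plus strand), holds the microRNA gene Mir7117 within its exons. The sources used here do not give the strand setting of the counting, so reads of Cd9 and Gm26728 cannot be told apart there.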

How the data were processed

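Per the labels' protocols, microglial RNA came from RNeasy Micro columns and went into standard Illumina libraries. The authors deposited 1 table of raw counts per gene symbol for 46 libraries. Per the submitters' processing notes the tools were STAR 2.5.2b and featureCounts 1.5.2, with the build GRCm38 (mm10). The sources used here do not give the annotation, strand setting or treatment of shared reads.

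Groups came from the labels for diet, genotype and sex, and replicate numbers follow accession order and pair nothing. With edgeR 4.0.16 (R 4.3.3) 12121 genes passed filterByExpr, and 1 quasi-likelihood fit with TMM factors (0.918 to 1.25) gave a mean for each group of diet, genotype and sex and a shared spread; comparisons of diets and genotypes weight the sexes equally. P-values were Benjamini-Hochberg adjusted over all tested genes and called under 0.05. Standard errors and 95% intervals come from the fit. Levels are CPM; 3 counts correspond to 0.432 to 46.4 CPM between libraries, and 3 counts is the floor for a count of 0. Correlations used log2(CPM + 1) and 100000 permutations (Python 3.11.15). No pair of replicate libraries agreed within sampling noise (lowest chi-square per degree of freedom 1.62).

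The markers and lists were chosen with earlier results of these data known. Named were the 10 markers, called genes of each list (at most 4 by p) and the 10 genes most like the marker mean in AD, predicted genes left out. Alternatives were DESeq2 size factors, no low-count filter, DESeq2 1.42.0, limma voom 3.58.1 with quality weights, a title series term, only the groups compared, leaving out each library and, for correlations, a pseudocount of 0.25, group deviations and each title series. A fit without the 2 doubted libraries was chosen after seeing the data. The fit was tested on simulated data. Only genes of higher mean count were changed there, so it does not bear on calls of scarce markers such as Itgax (773 counts in all 46 libraries) and Lgals3 (407). Lists of lymphocyte, neuron, astrocyte, oligodendrocyte and endothelial markers had summed levels of 0 to 3.7, 3.06 to 32.3, 0 to 36.7, 139 to 267 and 0 to 117 CPM. Human transgenes were not analysed here.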

Additional observations from a re-analysis of the deposited data

Results flagged for a closer look

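In 54 checks for a library far from the others of its diet and genotype (9 tested markers in 6 groups), 3 values stood apart; chance alone gives about 1 in 20 such groups. Itgax was 11.4 CPM (42 counts) in control_WT_F replicate 4, with the next library at 5.92 CPM. It was 5.01 CPM (10 counts) in zero_fiber_WT_F replicate 2, with the next at 2.07 CPM. Spp1 was 34.5 CPM (28 counts) in zero_fiber_AD_M replicate 1, the library of second lowest depth (783849 counts), with the next at 13.4 CPM.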

How the results depend on the processing

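Marker differences with an unadjusted p under 0.05 kept their direction in each alternative run; smaller differences, near 0, did not all do so. With no filter on low counts (31448 genes) the markers called were 1 for AD against WT over the diets (Itgax, adjusted p = 0.0305), 4 for HAMSAB against zero fiber in AD and 4 in WT (Itgax, Clec7a, Lpl and Cd9), 2 for zero fiber against control in AD (Clec7a and Lpl) and 1 for HAMSAB against control in WT (Itgax). For HAMSAB against zero fiber in WT 2 were called by DESeq2, by voom and with only the groups compared. HAMSAB against control in WT had 1 with DESeq2 size factors, DESeq2, voom and without the 2 doubted libraries. The cause of these changes was not tested. Restriction to the groups compared was not run for AD against WT over the diets or for the interaction with sex. Over all genes, HAMSAB against control in AD went from 9 calls to 88 with DESeq2, 72 with voom, 70 with only the groups compared, 25 with the title series term, 19 without the 2 doubted libraries and 357 without the filter. HAMSAB against control in WT went from 34 to 1 with the title series term and 4 with only the groups compared, and to 51 with DESeq2 size factors, 75 with DESeq2, 102 with voom and 433 without the filter. HAMSAB against zero fiber in WT went from 265 to 505 without the filter. Leaving out each library in turn gave 0 to 2 calls for HAMSAB against zero fiber in AD, 0 to 2 in WT and 0 to 1 for HAMSAB against control in WT, and 0 in the other comparisons. Called pairs in AD (9) were 4 without the 2 doubted libraries, 0 on group deviations and 0 in the upper title series, and 4 to 12 without single libraries. Called pairs in WT (1) were 0 on group deviations, 2 and 0 in the lower and upper title series, and 1 to 2 without single libraries. Depth limits Gpnmb, and in the library with 52114 counts every marker but Cd9. No paired analysis was possible because the replicate numbers follow accession order.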
